A study of Homo sapiens with 4 samples.

Results

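Dense anchor stretches are places in the genome where the anchors of SMC1-bound chromatin contacts lie close together. An anchor is a short region at which the authors placed the ends of contacts, and an anchor was taken as a member of a dense stretch when the midpoints of at least 8 other anchors lay within 50 kb on either side. This held for 3739 of the 39466 anchors on chromosomes 1 to 22 and X, or 9.47%, and members whose midpoints followed each other at up to 50 kb were joined into 403 stretches. The rule used positions alone and no count, although the positions were themselves set by the authors on these data.

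The contacts were mapped by ChIA-PET in human Kelly neuroblastoma cells that had become resistant to TAE684, an inhibitor of the kinase ALK, and were kept in 1 µM of the drug. Cells carried either shBORIS, a short hairpin RNA against BORIS, or the control hairpin shLUC, and were taken after 24 h of infection and 48 h of selection. Both groups shared the resistant parent line and the drug, and the labels do not say whether the numbers in the names of the 2 libraries per group mark replicates or hairpins. The 2 libraries of a group were deposited as 1 pooled table, so no value below carries a replicate error. Every interval and test compares 2 pools and covers counting error at most. The level of BORIS was not analysed here.

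ChIA-PET enriches DNA fragments bound by a chosen protein, ligates fragments that are close in space and reads both ends of each ligated product as a paired-end tag (PET). SMC1 is a core subunit of cohesin, the ring-shaped complex that extrudes DNA loops and also holds sister chromatids together. In vertebrate cells the extrusion of a loop is commonly halted where CTCF is bound, and cohesin also gathers at active promoters and enhancers. BORIS (gene symbol CTCFL) is related to CTCF and has a very similar set of zinc fingers, and its expression is largely limited to the germ line and to some tumours. Long clusters of active elements around genes that set a cell's identity are often rich in contacts among themselves.

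No genome of the build of the files, hg19, was at hand, so the bases under the anchors are not shown. The genes named beside stretches are given from general knowledge of hg19 and not from an annotation, and whether an anchor covers a given promoter was not determined. To show what such DNA looks like, the promoters of 2 genes of the noradrenergic neuroblastoma programme that lie in stretches described below are printed, from 250 bases before to 50 bases after the RefSeq start in GRCh38.p14. DBH encodes dopamine beta-hydroxylase, which makes noradrenaline from dopamine, and GATA2 encodes a zinc-finger transcription factor of the sympathetic lineage with 2 listed starts. Capitals mark matches on either strand to GGNGGCAG, letters common to the cores of many CTCF sites, which 5852 of 35116 promoters in the table hold (16.7%).
DBH, chr9:133636113-133636412, plus strand: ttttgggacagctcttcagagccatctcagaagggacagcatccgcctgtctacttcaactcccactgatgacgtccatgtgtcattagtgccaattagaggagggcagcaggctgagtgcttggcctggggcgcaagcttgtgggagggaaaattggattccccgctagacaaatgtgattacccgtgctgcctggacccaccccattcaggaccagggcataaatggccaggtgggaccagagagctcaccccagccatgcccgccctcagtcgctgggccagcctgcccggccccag
GATA2, first start, chr3:128493152-128493451, minus strand: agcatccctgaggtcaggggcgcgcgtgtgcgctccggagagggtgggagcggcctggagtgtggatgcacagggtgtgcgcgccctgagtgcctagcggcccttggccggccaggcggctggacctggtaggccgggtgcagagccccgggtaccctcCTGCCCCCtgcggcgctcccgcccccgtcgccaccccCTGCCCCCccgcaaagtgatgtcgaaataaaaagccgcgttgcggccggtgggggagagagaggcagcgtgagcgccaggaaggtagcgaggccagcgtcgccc
GATA2, second start, chr3:128488481-128488780, minus strand: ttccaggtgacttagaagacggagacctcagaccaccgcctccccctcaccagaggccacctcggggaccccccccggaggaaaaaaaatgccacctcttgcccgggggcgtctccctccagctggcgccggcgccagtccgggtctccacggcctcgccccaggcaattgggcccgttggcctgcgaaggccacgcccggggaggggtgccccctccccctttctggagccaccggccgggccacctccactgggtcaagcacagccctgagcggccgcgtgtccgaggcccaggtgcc
The first GATA2 promoter holds 2 matches on the strand opposite to the gene, and the other 2 sequences hold 0. This turns over with the letters searched, since a longer form (CC, any 3 bases, then AGNNGGC), held by 10.6% of promoters, matches the second GATA2 promoter 2 times and the first 0 times. Their GC content is 59.3% for DBH, 72.3% for the first GATA2 start and 71.3% for the second, against a median of 58.7% over all promoters. A match is a run of letters and not a measured binding site.

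The stretches were small on the whole, with a few that were very long. The median stretch held 8 members over 50.2 kb, and all 403 together covered 27.0 Mb. A single member made up 45 stretches, 2 to 9 members made up 220, and 10 or more made up 138. The 38 stretches with at least 20 members held 1203 of the members, and 7 had at least 40. Neighbouring midpoints within stretches lay a median of 5.47 kb apart, where over all anchors the median gap was 27.6 kb. Members were slightly wider than other anchors, with a median of 1314 bp (quartiles 996 and 1838.5 bp) against 1163 bp.

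Density varied widely among the members themselves. The median anchor of the whole set had 2 other midpoints within 50 kb, and 6687 anchors had none. Among members, 919 had 12 or more, 208 had 16 or more, and the highest value, 21, was reached by 5 anchors, on chromosomes 3, 9 and 17. At the threshold itself, 1127 anchors with exactly 8 others were members and 1360 with exactly 7 were not. These bordering anchors were close in their counts. Those with exactly 8 averaged 11.6 PETs under 200 kb in shBORIS and 9.55 in shLUC, and those with exactly 7 averaged 10.5 in shBORIS and 8.94 in shLUC.

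Stretches were unevenly spread over the chromosomes. Chromosome 9 had 419 members, 31.5% of its anchors, chromosome 17 had 651 (27.1%) and chromosome 20 had 395 (23.7%). On chromosome 19 the share was 13.1%, on chromosome 12 12.6% and on chromosome 1 9.90%, close to the genome as a whole. Chromosome 4 had 26 members (1.69%) and chromosome 8 had 5 (0.374%). Chromosomes 13, 18, 21 and X had 0 members among their 859, 547, 337 and 615 anchors. Of all PETs within stretches, 22.6% lay on chromosome 17, 15.2% on chromosome 9 and 12.1% on chromosome 1.

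The depth behind these values was modest. The shBORIS table held 163001 intrachromosomal PETs on the chromosomes used and 285787 interchromosomal ones, and the shLUC table held 146105 and 287738. Of the listed anchor pairs, 92.7% in shBORIS and 93.5% in shLUC rested on 1 PET. Nearly every member was seen in both tables, since only 3 were listed in 1 table alone. A member had on average 17.8 intrachromosomal PETs in shBORIS and 14.7 in shLUC, with medians of 11 and 9. Anchors outside stretches averaged 7.26 in shBORIS and 6.64 in shLUC.

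PETs with both ends in the same stretch took a larger share of the intrachromosomal contacts in shBORIS. They numbered 20975 in shBORIS, 12.9% of that table's intrachromosomal PETs (12.7 to 13.0), and 16860 in shLUC, 11.5% (11.4 to 11.7). Divided by the 2 table totals, the scaled ratio of shBORIS over shLUC was 1.12, with an exact 95% Clopper-Pearson interval of 1.09 to 1.14. PETs that left a stretch for another place on the same chromosome differed less, with 23054 in shBORIS (14.1%) and 19984 in shLUC (13.7%) and a scaled ratio of 1.03 (1.01 to 1.05). Scaled by intrachromosomal PETs under 2 Mb the leaving ratio was 1.02 (0.998 to 1.04), an interval that includes 1. All contacts with neither end in a stretch gave 118972 PETs in shBORIS and 109261 in shLUC and a scaled ratio of 0.976 (0.968 to 0.984). Since each ratio is relative to its table's total, values above 1 in some classes go with values below 1 in others.

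Interchromosomal PETs moved in the same direction at members. These PETs, scaled by the interchromosomal totals, serve as a measure of how much material an anchor contributed, since most are commonly taken to be random ligations. Members had 71141 interchromosomal ends in shBORIS and 68510 in shLUC, a scaled ratio of 1.05 (1.03 to 1.06), against 0.994 (0.990 to 0.998) at all other anchors. A PET with both ends in the same class counts at each end, so these intervals are too narrow even for counting error. Set against the members' own interchromosomal PETs in place of the table totals, the ratio within stretches was 1.20 and that of leaving PETs was 1.11. All intrachromosomal PETs of the tables, set in the same way against all interchromosomal PETs, had 1.12, which is then the value of no change.

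More of the members' same-chromosome contacts stayed inside the stretch in shBORIS. The share was 47.6% in shBORIS (47.2 to 48.1) and 45.8% in shLUC (45.3 to 46.3), intervals that do not overlap. Contacts inside were short, with a median distance between anchor midpoints of 20.0 kb in shBORIS and 21.0 kb in shLUC, and those that left had medians of 146 kb and 151 kb. By distance, the scaled ratio within stretches was 1.14 under 20 kb (1.11 to 1.18), 1.08 between 20 and 100 kb (1.05 to 1.12) and 1.11 at 100 kb and over (1.03 to 1.20). Among PETs that left, it was 1.12 under 20 kb (1.03 to 1.21), 1.05 between 20 and 100 kb and 1.05 between 100 and 500 kb. Leaving contacts over 2 Mb went the other way, with 4422 PETs in shBORIS and 4141 in shLUC and a scaled ratio of 0.957 (0.917 to 0.999).

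Short contacts took a larger share in shBORIS outside stretches as well, so contacts of equal distance were compared. A Mantel-Haenszel odds ratio over 9 distance classes up to 200 kb set the shBORIS over shLUC odds of PETs within stretches against those of all other PETs. It was 1.07 (1.04 to 1.09), a normal-approximation interval on the log scale, so part of the 1.12 against the whole table was shared by equally long contacts elsewhere. Against contacts with neither end in a stretch it was also 1.07 (1.04 to 1.10). With classes of distance and chromosome it was 1.05 (1.03 to 1.08), and with classes of distance and of the anchors' interchromosomal PETs 1.06 (1.03 to 1.08). These 3 comparisons were chosen after seeing the data.

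Stretches and other contacts were also set side by side in each distance class. At 5 to 10 kb the scaled ratio was 1.22 within stretches (1.14 to 1.30) and 1.12 elsewhere (1.07 to 1.18), and at 10 to 20 kb it was 1.23 (1.17 to 1.30) and 1.11 (1.07 to 1.16). At 35 to 50 kb the values met, at 1.03 within stretches and 1.02 elsewhere. The widest separation was at 150 to 200 kb, where stretches held 390 PETs in shBORIS and 273 in shLUC, or 1.28 when scaled (1.09 to 1.5), while other contacts had 0.954. Only stretches wider than 150 kb can hold such contacts, and the median stretch spanned 50.2 kb. The members also hold more possible partners at short range, so PETs were counted per possible anchor pair. At 10 to 20 kb there were 91.2 PETs per 100 possible pairs within stretches in shBORIS and 66.3 in shLUC, against 66.6 in shBORIS and 53.9 in shLUC for pairs outside. At 100 to 150 kb the order was turned round, with 21.4 in shBORIS and 18.6 in shLUC within stretches against 35.9 and 33.3 outside. PETs per possible pair were thus higher within stretches in every class under 35 kb and lower in every class from 35 to 200 kb, in both tables. Set against the PETs predicted from the anchors' interchromosomal PETs, most of this short-range excess turned round. Every class was then lower within stretches in shLUC. In shBORIS every class was lower except 5 to 10 kb, with 1429 times the predicted PETs within and 1395 times outside. Summed over distances, a possible pair inside a stretch had 1.06 times the PETs of a pair outside in shBORIS and 0.976 times in shLUC.

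**Figure D1:**
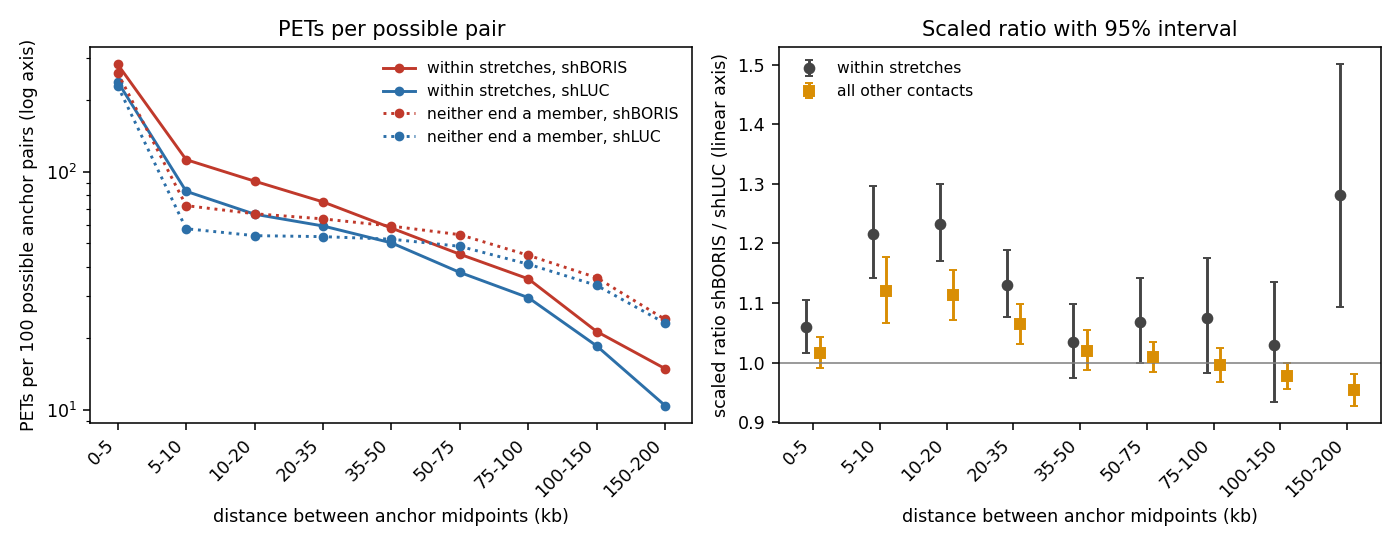
PETs by the distance between anchor midpoints in kb. Left, PETs per 100 possible anchor pairs on a log axis for pairs within dense stretches (solid) and pairs with neither end a member (dotted), in shBORIS (red) and shLUC (blue). Right, the scaled ratio of shBORIS over shLUC with exact 95% intervals for contacts within stretches and for all other contacts. The intervals of the 2 lie apart at 10 to 20 kb and at 150 to 200 kb only, and the ratios meet at 35 to 50 kb.

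The scaled ratio followed the number of neighbours, inside and outside stretches. For PETs under 200 kb it was 0.917 for anchors with 0 other midpoints within 50 kb, 0.982 with 1 to 3 and 1.05 with 4 to 7. Among members it was 1.09 with 8 to 11, 1.11 with 12 to 15 and 1.15 with 16 or more (1.10 to 1.20). Here a PET counts at each of its ends in a class, so the intervals are too narrow even for counting error. The count of short-range PETs per anchor was 25.2 in shBORIS and 19.7 in shLUC for members with 16 or more neighbours, against 1.32 and 1.29 for anchors with 0. The threshold of 8 lies on this slope and marks no jump, since anchors with exactly 8 had a ratio of 1.09 (1.06 to 1.12) and those with exactly 7 had 1.05 (1.03 to 1.08). The interchromosomal ratio ran the same way, at 0.962 for 0 neighbours and 1.10 for 16 or more (1.05 to 1.14). For contacts over 2 Mb the ratios of those classes were 0.844 and 1.01. The part of the interchromosomal difference in the short-range one was not tested.

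The median number of interchromosomal PETs per anchor was 10 to 12 in every class of neighbour number, in both tables. The mean was more spread, at 23.9 in shBORIS and 21.9 in shLUC for members with 16 or more neighbours, against 11.6 and 12.1 for anchors with 0. A few anchors with many PETs thus set the means of the densest class, and the typical member of it collected about as many interchromosomal PETs as an anchor elsewhere.

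**Figure D2:**
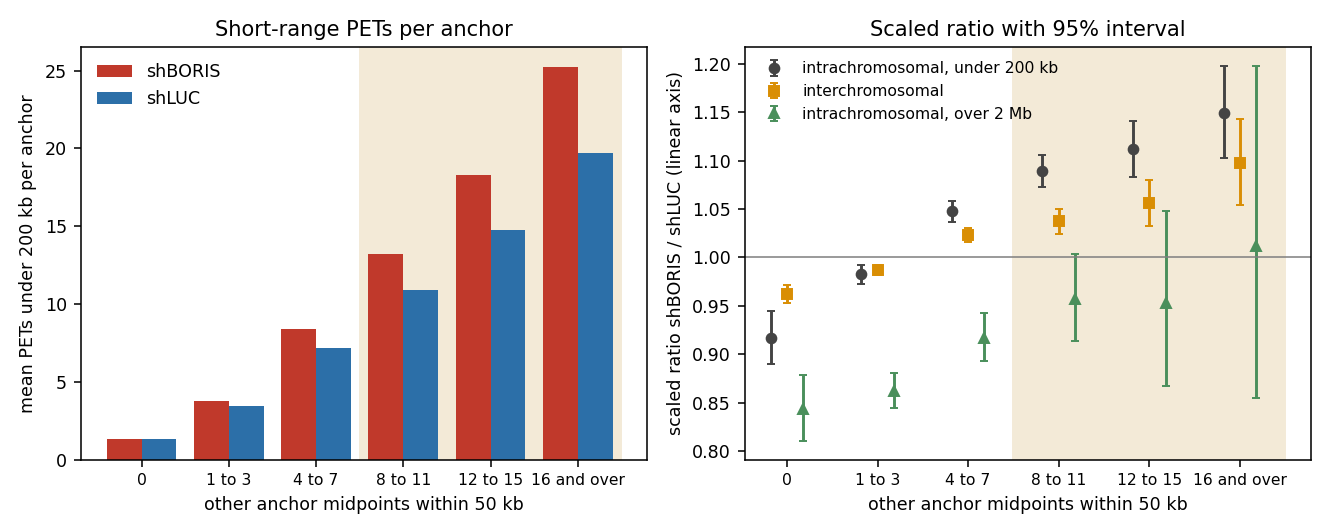
Anchors grouped by the number of other anchor midpoints within 50 kb, with the classes that make up dense stretches shaded. Left, mean PETs under 200 kb per anchor in shBORIS (red) and shLUC (blue). Right, the scaled ratio of shBORIS over shLUC with exact 95% intervals for short-range, interchromosomal and long-range PETs. A PET counts at each of its ends in a class, so the intervals are too narrow. Short-range ratios climb over the classes, with 0.917 at 0 neighbours and 1.15 at 16 or more.

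Larger stretches carried more contacts per member, but their members also have more possible partners within the stretch. A stretch of 1 member can hold no such PET, and the counts here were not divided by possible pairs. Stretches of 40 or more members had 10.1 PETs within per member in shBORIS and 7.95 in shLUC, and those of 1 to 4 members had 1.04 and 0.965. The scaled ratio was 0.971 in the smallest class (0.827 to 1.14), 1.10 with 5 to 9 members, 1.11 with 10 to 19, 1.12 with 20 to 39 and 1.14 with 40 or more (1.09 to 1.19). Contacts were not limited to adjacent anchors. In 32.9% of the PETs within stretches in shBORIS and 33.4% in shLUC no other member lay between the 2 ends, and in 10.7% and 10.2% at least 11 members were passed over. The ratio had no single direction over these classes, at 1.10 with 0 members between the ends (1.06 to 1.14), 1.18 with 1 to 2, 1.08 with 3 to 5, 1.06 with 6 to 10 and 1.17 with 11 or more (1.10 to 1.25). Of 36723 possible pairs within stretches, 11098 had a PET in either table, or 30.2%.

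Called contacts gave a similar picture. A call needed 3 PETs or more and a deposited Bayes probability of 0.9 or more. Within stretches 2238 pairs were called in shBORIS and 1730 in shLUC, or 17.1% and 15.4% of all intrachromosomal calls. Of these, 1152 were called in both, which is 51.5% of the shBORIS calls (49.4 to 53.6) and 66.6% of the shLUC calls (64.3 to 68.8). For pairs with neither end in a stretch, 9394 were called in shBORIS and 8277 in shLUC, and the shared 4442 were 47.3% and 53.7% of them. Sharing depends on the number of PETs. Of the shLUC calls within stretches that had 3 PETs, 45.7% were also called in shBORIS, and 32.0% of those outside were. With 10 or more PETs 190 of 192 within stretches and 96.8% outside were. A called contact was found at 61.8% of members in shBORIS and 55.4% in shLUC, against 34.0% and 32.1% of other anchors. At least 5 calls were found at 9.23% of members in shBORIS and 6.12% in shLUC.

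The higher share within stretches was found on most chromosomes that could be read. On all 14 chromosomes with at least 500 PETs within stretches the scaled ratio was above 1, and in 8 the interval lay above 1. Of those with fewer PETs, chromosomes 6 (1.24), 8 (1.24) and 16 (1.23) were above 1. Chromosomes 4 (0.945, 0.703 to 1.27) and 22 (0.954, 0.770 to 1.18) were below 1. All intervals of these smaller ones included 1. In all 14 the ratio within stretches was also above that of all intrachromosomal PETs of the same chromosome. That comparison was not matched for distance, and short contacts took a larger share in shBORIS outside stretches as well. On chromosome 5 the ratio within stretches was 1.24 (1.08 to 1.43) where the whole chromosome had 0.943. On chromosome 3 it was 1.20 (1.10 to 1.31) where the whole had 0.956. Chromosome 20 was the least separated, with 1.05 (0.983 to 1.12) in stretches and 1.05 overall. The PETs are concentrated in few stretches. The 94 stretches with at least 100 PETs held 78.1% of all PETs within stretches, and the 10 with the most held 27.4%, while 57 stretches had 0 PETs within, of which 12 had more than 1 member.

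Stretch by stretch, most differences were within counting error. Of the 94 stretches with at least 100 PETs, 71 had a scaled ratio above 1, with a median of 1.15 and a range of 0.679 to 1.65. The interval lay above 1 in 20 and below 1 in 1, and 4 had a ratio of at least 1.5. Anchors outside stretches were joined into runs in the same way for comparison, a step added after seeing the data. Over the 245 runs and stretches with at least 100 PETs, 15.1% had an interval above 1, 2.04% had an interval below 1 and 5.31% had a ratio of at least 1.5. Of the 151 runs alone, 91 had a ratio above 1, the interval lay above 1 in 17 and below 1 in 4, and the median was 1.05. PETs leaving the 94 stretches were evenly divided, with a ratio above 1 in 47 and intervals above 1 in 5 and below 1 in 5. Interchromosomal PETs of the 94 had a ratio above 1 in 65, with 17 intervals above 1 and 2 below.

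**Figure D3:**
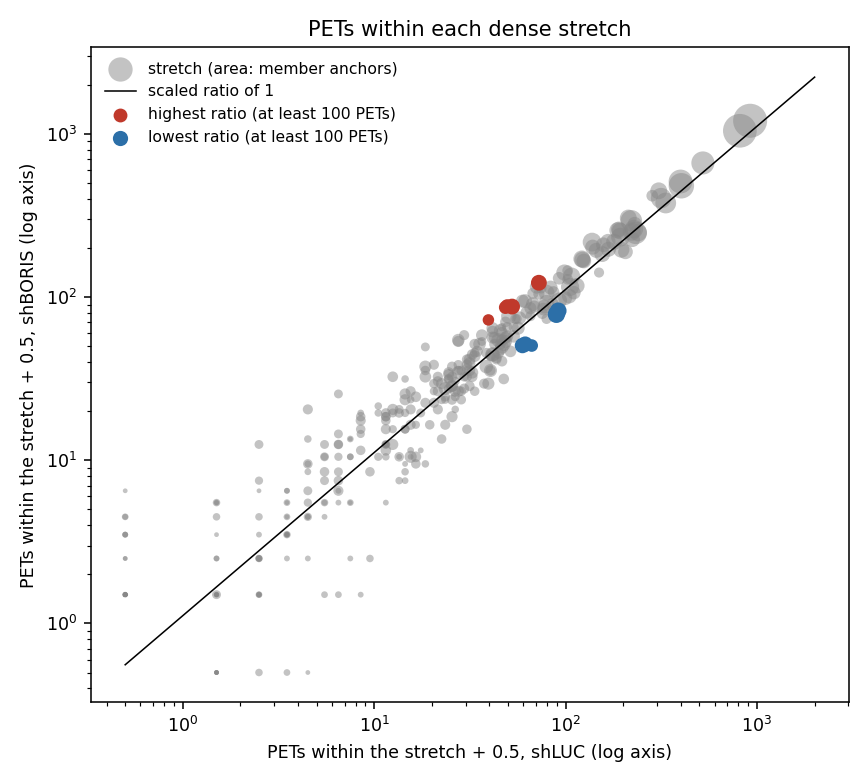
PETs within each dense stretch that had any, shBORIS on the vertical and shLUC on the horizontal axis, both as PETs + 0.5 on a log axis. The area of a point grows with the number of member anchors, the line marks a scaled ratio of 1, and the 5 highest (red) and 5 lowest (blue) ratios among stretches with at least 100 PETs are coloured. Of those 94 stretches, 71 lie above the line.

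The longest stretches were described first, by number of members. The largest by anchors lay on chromosome 17 at 71463534-72105248, over the 5' part of SDK2 and beyond, with 102 members over 642 kb. SDK2 encodes sidekick 2, a cell adhesion molecule of neurons. It had 1205 PETs within in shBORIS and 920 in shLUC, a scaled ratio of 1.17 (1.08 to 1.28). PETs that left it, 446 in shBORIS and 372 in shLUC, gave 1.07 (0.934 to 1.24), and its interchromosomal PETs, 2366 in shBORIS and 2081 in shLUC, gave 1.14 (1.08 to 1.21). Of its 5151 possible pairs 719 had a PET in either table, or 14.0%. Called pairs numbered 111 in shBORIS and 76 in shLUC, of which 57 were called in both, and 73.0% of its same-chromosome PETs stayed within in shBORIS and 71.2% in shLUC.

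Contacts in that stretch gathered on a few wide anchors. The anchor at 71634009-71644664 contacted 62 of the 101 other members, with 256 PETs within the stretch in shBORIS and 166 in shLUC. Over all its intrachromosomal PETs, 298 in shBORIS and 203 in shLUC, the scaled ratio was 1.32 (1.10 to 1.58, two-sided Fisher's exact test, adjusted p = 0.489). It had 22 called contacts in shBORIS and 16 in shLUC. Its strongest partner was 71577344-71586974, 57.2 kb away, with 57 PETs in shBORIS and 39 in shLUC. The members with the most neighbours were not those with the most PETs. The 2 members of the stretch with 21 neighbours, at 71545286-71547353 and 71549757-71550793, had 19 and 5 intrachromosomal PETs in shBORIS and 11 and 16 in shLUC.

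The second largest stretch lay on chromosome 9 at 136195822-136861071, a region that holds ADAMTS13, DBH, SARDH and VAV2. ADAMTS13 cleaves von Willebrand factor, and SARDH is a mitochondrial sarcosine dehydrogenase. Its 100 members spanned 665 kb, the widest of all stretches. It had 1046 PETs within in shBORIS and 813 in shLUC, a scaled ratio of 1.15 (1.05 to 1.27), and few PETs left it, 182 in shBORIS and 145 in shLUC. The share that stayed was 85.2% in shBORIS and 84.9% in shLUC. Unlike the chromosome 17 stretch, its interchromosomal ratio was close to 1, at 1.02 (0.963 to 1.08). Scaled by their own interchromosomal PETs, the ratio within was 1.27 here and 1.15 in the chromosome 17 stretch, where the whole tables had 1.12. The difference between the 2 stretches was not tested. The member with the most PETs within the stretch, 136496204-136504091, had 141 in shBORIS and 112 in shLUC and the highest number of neighbours, 21. Over all its intrachromosomal PETs, 148 in shBORIS and 119 in shLUC, the ratio was 1.11 (0.870 to 1.43). The member at 136854545-136861071, with only 8 neighbours, was close, with 135 PETs within in shBORIS and 103 in shLUC. It had 151 intrachromosomal PETs in shBORIS and 118 in shLUC and contacted 43 of the 99 other members, against 36 for the first. A contact of 199 kb, between 136657500-136659888 and 136854545-136861071, had 32 PETs in shBORIS and 27 in shLUC and passed over 31 members.

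**Figure D4:**
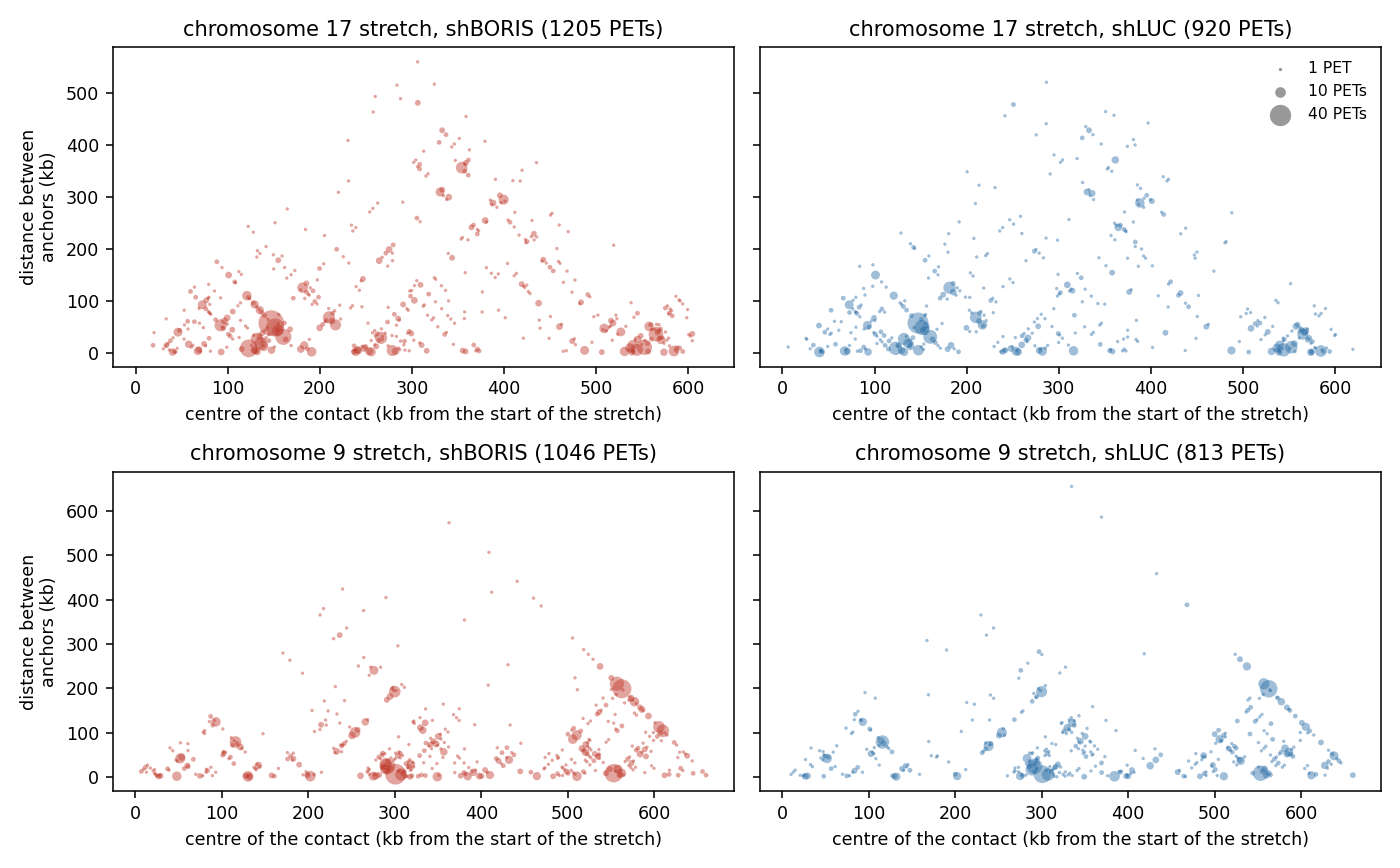
Contacts within the 2 stretches with the most anchors, on chromosome 17 (top) and chromosome 9 (bottom), in shBORIS (left, red) and shLUC (right, blue). Each point is an anchor pair, placed by the centre of the contact in kb from the start of the stretch and by the distance between its anchors in kb, with an area that grows with its PETs. The chromosome 17 maps hold 1205 PETs in shBORIS and 920 in shLUC and the chromosome 9 maps 1046 in shBORIS and 813 in shLUC, most of them at short distance.

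Of the next stretches by number of members, 4 are described here, with ratios of 0.954 to 1.19. On chromosome 9 at 139377888-139738961, with the receptor gene NOTCH1 and with EGFL7 and AGPAT2, 50 members had 511 in shBORIS and 398 in shLUC (1.15, 1.01 to 1.32). Further along the same arm, 139886280-140216143 holds ABCA2, the glutamate receptor gene GRIN1 and the Notch regulator NRARP, and its 41 members had 293 in shBORIS and 220 in shLUC (1.19, 0.999 to 1.43).

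The region of chromosome 17 between SOX9 and SLC39A11 stood lower. At 70263694-70636520, 44 members had 247 PETs within in shBORIS and 232 in shLUC, a scaled ratio of 0.954 (0.794 to 1.15), and its interchromosomal ratio was 0.936 (0.847 to 1.03). On the same chromosome, 71150903-71398720 with the somatostatin receptor gene SSTR2, CDC42EP4 and the 3' part of SDK2 had 377 in shBORIS and 333 in shLUC (1.01, 0.873 to 1.18). Both intervals included 1.

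Of the other stretches named for their members or their PETs, 4 had ratios of 1.29 to 1.42. The PLXNA1 stretch was named for its members and the other 3 for their PETs. With pairs of at least 20 kb alone, the intervals of 3 of them included 1, at PLXNA1 (1.23, 0.905 to 1.69), TP53I11 (1.25, 0.957 to 1.64) and CDK5RAP3 with NFE2L1 (1.23, 0.955 to 1.59). The GATA2 stretch on chromosome 3, at 128088912-128222587, packed 25 members into 134 kb, and anchors covered 43.4% of its length. It had 448 PETs within in shBORIS and 306 in shLUC, a scaled ratio of 1.31 (1.13 to 1.52). PETs that left it leaned the other way, with 115 in shBORIS and 124 in shLUC (0.831, 0.639 to 1.08), so that 79.6% stayed within in shBORIS and 71.2% in shLUC. Its interchromosomal ratio was 1.12 (1.01 to 1.25). Of its possible pairs, 47.3% had a PET in either table. Its widest member, 128203193-128213627, had 129 PETs within in shBORIS and 87 in shLUC, and 128174868-128179690, with 21 neighbours, had 117 and 67.

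The PLXNA1 stretch, on the same chromosome at 126646490-126902498, had 217 PETs within in shBORIS and 137 in shLUC over 31 members (1.42, 1.14 to 1.77). PLXNA1 encodes plexin A1, a semaphorin receptor of growing axons. The pair between 126874964-126880767 and 126889284-126893712 alone gave 58 PETs in shBORIS and 26 in shLUC, 23.7% of the PETs of the stretch. Its scaled ratio was 2.0 (1.24 to 3.31), which did not pass the two-sided Fisher's exact test over all pairs (adjusted p = 0.463). The TP53I11 stretch on chromosome 11, at 44932249-45110283, had 305 PETs within in shBORIS and 212 in shLUC over 25 members (1.29, 1.08 to 1.54).

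A stretch of only 12 members on chromosome 17, at 46047529-46132283, was among the 10 with the most PETs. It holds CDK5RAP3 and the start of NFE2L1, a transcription factor that controls proteasome genes. It had 418 PETs within in shBORIS and 283 in shLUC (1.32, 1.14 to 1.55). Here every class of contact was higher in shBORIS, with 157 PETs in shBORIS and 104 in shLUC leaving (1.35, 1.05 to 1.75) and 772 interchromosomal PETs in shBORIS and 557 in shLUC (1.40, 1.25 to 1.56). Set against its own interchromosomal PETs, the ratio within was 1.07 (0.914 to 1.24), below the 1.12 of the whole tables on that scaling.

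The 5 highest ratios among stretches with at least 100 PETs were all based on fewer than 200 PETs. On chromosome 2, 219711949-219763864 with WNT6 and WNT10A, 2 secreted ligands, had 72 PETs within in shBORIS and 39 in shLUC (1.65, 1.11 to 2.51). On chromosome 12, 106508884-106582900 with the kinase gene NUAK1 had 88 in shBORIS and 49 in shLUC (1.61, 1.12 to 2.33) and on chromosome 9, 135417032-135466696 with the homeobox gene BARHL1 had 86 in shBORIS and 48 in shLUC (1.61, 1.12 to 2.34). The fourth, on chromosome 20 at 62369388-62527307 with ZBTB46 and DNAJC5, had 122 in shBORIS and 72 in shLUC (1.52, 1.13 to 2.06). The fifth, on chromosome 19 at 12868090-12952348 with the AP-1 subunit gene JUNB, had 87 in shBORIS and 52 in shLUC (just under 1.5, 1.05 to 2.16). Being picked for their height, they are a description with no test. With pairs of at least 20 kb alone, all 5 intervals included 1.

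The 5 differed in what happened outside the stretch. PETs leaving the BARHL1 stretch were also higher in shBORIS, with 187 in shBORIS and 115 in shLUC (1.46, 1.15 to 1.86), as were those leaving the ZBTB46 stretch, with 111 in shBORIS and 56 in shLUC (1.78, 1.28 to 2.50). At the NUAK1 stretch 97 PETs left in shBORIS and 104 in shLUC (0.836, 0.627 to 1.11). The JUNB stretch had an interchromosomal ratio of 1.33 (1.12 to 1.58), while those of the other 4 had intervals that included 1. In the NUAK1 stretch the member at 106531091-106534246 had 50 PETs within in shBORIS and 13 in shLUC, against 38 and 21 at its neighbour 106527788-106531085.

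The 5 lowest ratios were nearer to 1. The PTMA stretch on chromosome 2, at 232512877-232581398, had 50 PETs within in shBORIS and 66 in shLUC (0.679, 0.461 to 0.996), the only interval below 1 among the 94. That interval reached past 1 with pairs of at least 20 kb (0.482 to 1.30) and with called pairs (0.416 to 1.03). Scaled by interchromosomal PETs it was 0.509 to 1.10, where the whole tables had 1.12. Scaled by all PETs it was 0.497 to 1.07, where the value of no change is also above 1. PTMA encodes prothymosin alpha, a small nuclear protein. The MAD1L1 stretch on chromosome 7, at 2102959-2200113, had 51 in shBORIS and 61 in shLUC (0.749, 0.506 to 1.11), and a stretch on chromosome 22, at 42679338-42796242, had 50 in shBORIS and 59 in shLUC (0.760, 0.511 to 1.13). The GATA5 stretch on chromosome 20, at 60930043-61079244, had 78 in shBORIS and 89 in shLUC (0.786, 0.572 to 1.08). The KCNN3 stretch on chromosome 1, at 154700174-154852258, had 82 in shBORIS and 91 in shLUC (0.808, 0.592 to 1.10).

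**Figure D5:**
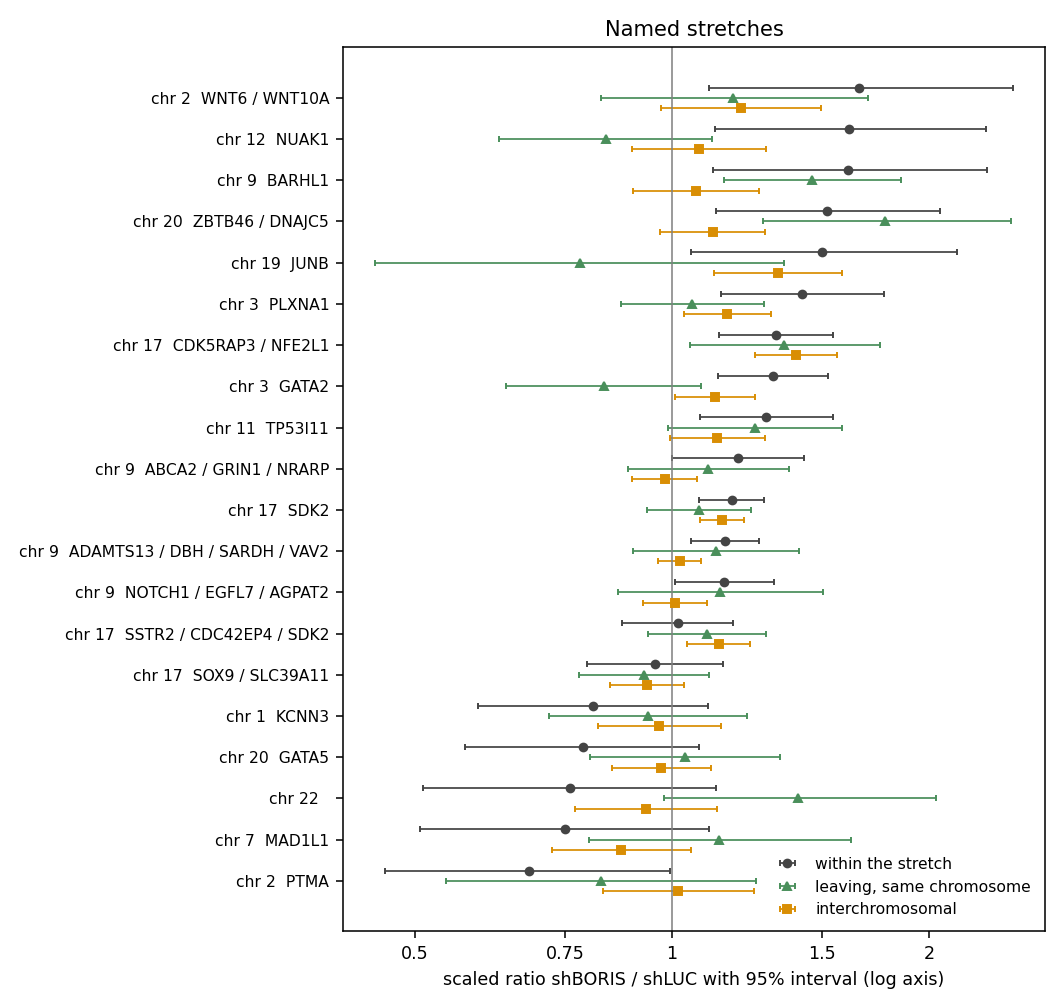
Scaled ratio of shBORIS over shLUC on a log axis for the named stretches, ordered by the ratio within the stretch, for PETs within it, PETs leaving it on the same chromosome and interchromosomal PETs, with exact 95% intervals. Labels give the chromosome and, from general knowledge of hg19, genes in or beside the stretch. The highest value within is 1.65 on chromosome 2 and the lowest 0.679, also on chromosome 2.

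For single anchors, the intrachromosomal PETs were compared with all other PET ends of the table by Fisher's exact test, two-sided, with Benjamini-Hochberg adjustment over all 19615 anchors with at least 10 PETs. Of the 3739 members 2996 reached that minimum and 743 did not. At an adjusted p under 0.05, 2 members were higher in shBORIS and 0 lower, where 0.0153% of all tested anchors were higher and 0.0051% lower. At an unadjusted p under 0.05, 165 of the tested members were higher (5.51%) and 68 lower (2.27%), against 3.25% and 3.18% of all tested anchors. Among the 1896 members with at least 20 PETs, 351 had a ratio of at least 1.5 (18.5%) and 173 of at most 1/1.5 (9.12%), against 16.1% and 13.7% of all such anchors. Their median ratio was 1.09 and that of all such anchors 1.02.

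With pairs of at least 20 kb alone 0 members passed (smallest adjusted p 0.333, exact test), and 1 passed when all anchors with 1 PET or more entered. The 2 members that passed had unlike interchromosomal PETs. The anchor at 46067619-46075229 on chromosome 17, in the CDK5RAP3 and NFE2L1 stretch, had 229 intrachromosomal PETs in shBORIS and 121 in shLUC, giving 1.70 as the scaled ratio (1.36 to 2.13) and an adjusted p of 0.0146 by Fisher's exact test. Its interchromosomal PETs, 189 in shBORIS and 94 in shLUC, were also higher in shBORIS, with a ratio of 2.02 (1.57 to 2.62), and their part in the difference was not tested. The anchor at 62477153-62479908 on chromosome 20, in the ZBTB46 and DNAJC5 stretch, had 42 intrachromosomal PETs in shBORIS and 8 in shLUC (4.71, 2.18 to 11.6, adjusted p = 0.0276 by the exact test). Between chromosomes it had 39 PETs in shBORIS and 40 in shLUC (0.982). Within the stretch it had 37 PETs in shBORIS and 7 in shLUC, and it took part in 7 called contacts in shBORIS and 0 in shLUC. The next member by p, 203258180-203260748 on chromosome 1, had 43 PETs in shBORIS and 11 in shLUC (3.50, adjusted p = 0.128 by the exact test).

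No single pair within a stretch passed. The sum over shBORIS and shLUC reached 10 PETs for 3948 pairs, of which 760 lay within stretches (19.3%). By Fisher's exact test, two-sided, with adjustment over all 3948, 0 pairs within stretches were higher in shBORIS and 0 lower, where 0.0507% of all tested pairs were higher and 0% lower. At an unadjusted p under 0.05, 30 pairs within stretches were higher (3.95%) and 12 lower (1.58%), against 3.06% and 2.63% of all tested pairs. The smallest adjusted p within stretches was 0.370, for a pair on chromosome 14 between 24526972-24528884 and 24577463-24578880 with 2 PETs in shBORIS and 14 in shLUC.

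The 5 pairs with the most PETs were strong in both tables. The first, on chromosome 17 between 46067619-46075229 and 46079167-46083101, had 79 PETs in shBORIS and 47 in shLUC (1.51, 1.04 to 2.21, exact test, adjusted p = 0.736). On chromosome 1, 156626084-156631646 contacted 156646472-156648875 near NES with 46 PETs in shBORIS and 51 in shLUC (0.808, 0.531 to 1.23, exact test, adjusted p = 0.986). The pair of the SDK2 stretch given above, with 57 PETs in shBORIS and 39 in shLUC, had a ratio of 1.31 (exact test, adjusted p = 0.962). On chromosome 9, 139381830-139384881 contacted 139518511-139526710 across 139 kb, passing over 26 members, with 40 PETs in shBORIS and 52 in shLUC (0.689, 0.445 to 1.06, exact test, adjusted p = 0.860). On chromosome 17, 72374654-72377256 contacted 72449136-72454831 across 76.0 kb with 52 PETs in shBORIS and 38 in shLUC (1.23, exact test, adjusted p = 0.986). The ratios of the 5 fell on both sides of 1, and none passed the test.

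Stretches also contacted each other on the same chromosome. Such PETs numbered 1558 in shBORIS and 1296 in shLUC, a scaled ratio of 1.08 (1.00 to 1.16). The pair of stretches with the most lay on chromosome 12, where 54378193-54448111, in the HOXC cluster of homeobox genes, contacted 54552768-54798800 with 79 PETs in shBORIS and 55 in shLUC (1.29, 0.901 to 1.85). On chromosome 9, the stretch with GRIN1 and NRARP contacted 140299527-140349958 with 68 in shBORIS and 38 in shLUC (1.60, 1.06 to 2.45), while 137148278-137349044 contacted 137532545-137635500 with 54 in each table (0.896, 0.603 to 1.33). The 2 neighbouring stretches at SDK2, separated by 64.8 kb, shared 53 PETs in shBORIS and 44 in shLUC and had 0 called pairs between them.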

How the data were processed

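SMC1 ChIA-PET was read from 2 deposited tables, shBORIS and shLUC, each the pool of 2 libraries of its group. Per the submitters' processing notes, cutadapt 1.8 and Bowtie were among the tools and hg19 was the build, without roles or order. The program that set anchors and scored pairs is not given in the sources used here. PET counts per anchor pair are whole numbers and unnormalized, named so per the file headers. The Bayes probability, deposited as a fraction from 0 to 1, was used for calls at 0.9, and the deposited hypergeometric p-value was not used. For the shBORIS table, which lacks a header line, the columns were assumed to follow the order of the shLUC one. Coordinates are hg19, with starts in the files taken as counted from 0 and printed from 1.

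Anchors of both tables were combined, and those on other sequences (41) were left out. The members and the lists named were chosen with earlier results of these data known. Stretches named are the 10 with the most members, the 10 with the most PETs and, among those with at least 100 PETs, the 5 highest and 5 lowest ratios, of which 3 stretches are not reported here. Pairs named by rule are the 5 with the most PETs, and all anchors past the test are named. The pair near NUAK1, the GATA2 and SDK2 members with 21 neighbours, the 199 kb contact, the smallest-p items and the stretches that contact each other were picked after their values were seen. Non-member anchors between members (144) kept their PETs outside the stretch.

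Scaled ratios divide each table's PETs by its total of the same kind, with exact 95% Clopper-Pearson intervals. The intervals and tests take each count as an independent molecule and reflect counting error alone. Ratios by neighbour number and of interchromosomal ends count a PET at each of its ends that lies in the class. Their intervals are therefore too narrow even for counting error. If PCR copies of a PET remain in the counts, which was not checked, all intervals are too narrow even for counting error. Fisher's exact tests were adjusted over all anchors or pairs with at least 10 PETs. Mantel-Haenszel classes had limits at 5, 10, 20, 35, 50, 75, 100, 150 and 200 kb. The code was tested on simulated counts. Gene symbols were matched to the RefSeq table of GRCh38.p14 for order only. Alternatives varied the neighbour number, window, merging, scaling, minimum and distance classes. Python 3.11.15, numpy 2.4.6, pandas 2.3.3, scipy 1.17.1 and matplotlib 3.10.9 were used.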

Additional observations from a re-analysis of the deposited data

How the results depend on the processing

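No paired analysis was possible because the libraries of a group were deposited as 1 pooled table, and no replicate could be left out. The ratio within stretches (1.12) stayed at 1.10 to 1.13 under most alternatives and at 1.11 to 1.12 when any 1 stretch was left out. It was 1.15 with a 25 kb window, 1.20 when scaled by all PETs and 1.20 when scaled by the members' interchromosomal PETs. For leaving PETs (1.03) these 3 gave 1.11, 1.12 and 1.11 and a minimum of 10 others gave 1.05, while scaling by PETs under 2 Mb gave 1.02 (0.998 to 1.04). Set against all interchromosomal PETs, all intrachromosomal PETs had 1.12, the value to compare with for interchromosomal scaling only. For scaling by all PETs the value of no change is another one, also above 1. Intrachromosomal PETs were 163001 of 448788 in shBORIS and 146105 of 433843 in shLUC. The distance-matched odds ratio (1.07) ranged from 1.05 to 1.08. Members and stretches numbered 6900 and 772 with at least 6 others, 1829 and 194 with at least 10, 549 and 94 with a 25 kb window, and 2368 and 176 with a 100 kb window and 16 others.

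The share that stayed within was 49.5% in shBORIS and 47.4% in shLUC with at least 6 others, 43.7% and 42.0% with at least 10, 29.6% and 28.9% with the 25 kb window, and 55.7% and 54.2% with the 100 kb window. It was 44.2% and 42.3% with merging at 25 kb, 48.6% and 46.6% with merging at 100 kb, and 63.9% and 62.3% when ends within 100 kb were counted instead, and was higher in shBORIS each time.

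PETs per possible pair within over outside were less stable: 1.09 in shBORIS and 1.00 in shLUC with at least 10 others, 1.16 and 1.07 with the 25 kb window, 0.994 and 0.921 with the 100 kb window, 1.10 and 1.02 with merging at 25 kb, and 1.04 and 0.953 with merging at 100 kb. With at least 6 others shLUC had 0.954. Per PET predicted from the anchors' interchromosomal PETs the values were 0.661 and 0.609. Whether pairs in stretches had more or fewer PETs than equally long pairs elsewhere therefore depends on the definition, and the cause was not tested. Members past the anchor test fell to 1 when all anchors with 1 PET entered and to 0 with pairs of at least 20 kb only. Of the 13 named stretches with an interval above 1, 4 kept it with pairs of at least 20 kb and 9 with called pairs. With scaling by PETs under 2 Mb, 12 kept it. Scaled by interchromosomal PETs 11 of the 13 intervals lay above 1, and scaled by all PETs 13 did. On those 2 scalings the value of no change is itself above 1, so these counts do not show that a difference was kept. The 1 interval below 1 was kept when scaled by PETs under 2 Mb and reached past 1 with pairs of at least 20 kb and with called pairs. Scaled by interchromosomal PETs it was 0.509 to 1.10, below the 1.12 of no change on that scaling. Scaled by all PETs it was 0.497 to 1.07, where the value of no change is also above 1.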

Other observations

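Contacts between dense stretches on different chromosomes were counted as well. They numbered 4195 PETs in shBORIS and 3981 in shLUC, a scaled ratio of 1.06 (1.02 to 1.11), close to the 1.05 of all interchromosomal ends of members. Their sum was 1.01 times the number predicted from the anchors' interchromosomal totals. The PETs were spread over 6349 pairs of stretches. The pair with the most joined the DBH stretch on chromosome 9, at 136195822-136861071, to the SDK2 stretch on chromosome 17, at 71463534-72105248, with 9 PETs in shBORIS and 11 in shLUC where 18.8 were predicted over both tables.

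Members of the densest class were mixed in their counts. Of the 5 anchors with 21 neighbours, 128174868-128179690 on chromosome 3 had 129 intrachromosomal PETs in shBORIS and 77 in shLUC, while 136548386-136549387 on chromosome 9 had 7 and 5.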
